A study of Mus musculus with 15 samples.

Results

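Alternative last exon events are splicing choices in which a transcript ends in one of several mutually exclusive 3′ terminal exons. The 551 events described here were all entries of type AL in the authors' Whippet splicing table, out of 138940 events of every type, and they lay in 501 genes. Of these genes, 455 held 1 event, 42 held 2 and 4 held 3. Checked against the gene annotation, 549 events began at the 3′ splice site of an annotated last exon (GENCODE M21, mm10), and 546 of them lay upstream of another last exon of the same gene. The other 2 events overlapped no annotated last exon and have no transcript share.

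A last exon is defined by a 3′ splice site at its start and a cleavage and polyadenylation site at its end. When RNA polymerase II transcribes an upstream terminal exon, splicing into that exon followed by cleavage ends the message there, whereas skipping it lets transcription and splicing continue to a more distal end. Because stop codons usually lie in the last exon, the choice changes the C terminus of the protein together with the 3′ untranslated region, as in the classical switch from membrane to secreted immunoglobulin.

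CD8+ T cells carrying the OT-I receptor, which recognises the SIINFEKL peptide of ovalbumin, were transferred into C57BL/6J mice. The Ag group received the peptide with rat IgG, and the Ag+Costim group received the peptide with agonist antibodies to the costimulatory receptors OX40 (CD134) and 4-1BB (CD137). Transferred cells were sorted from spleen and lymph nodes on day 4 by the labels, a time the study's methods give as shorter, and their poly(A) RNA was sequenced in 5 libraries per group. The labels also list 5 Naive libraries, which were not analysed here. Donor mice carried the transgenic receptor on a Rag-deficient background, so both groups hold cells of 1 specificity, and the recipients kept their own lymphocytes, which the sort on CD45.1, Vα2 and Vβ5 was meant to remove. The labels do not tie each library to a separate animal, and p-values measure the spread between these libraries only.

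Estimated counts summed to between 59.6 M (mega, Ag replicate 3) and 639.1 M (Ag+Costim replicate 3) per library. They derive from read coverage, so these totals are not numbers of reads. Ag replicates 1, 3 and 4 stood apart, with 40441 to 51778 genes counted, against 20714 and 21779 in Ag replicates 5 and 2 and 28727 to 30340 in Ag+Costim. The CD8 T cell markers were abundant in every library, with a summed level of the 7 genes of 2862 to 5617 CPM (counts scaled to a common library size) in Ag and 3712 to 4583 CPM in Ag+Costim. The summed level of 6 erythroid markers reached 1103 CPM in Ag replicate 3, from a lowest value of 14.7 CPM in Ag, against 3.80 to 39.8 CPM in Ag+Costim. That of 6 B cell markers was 643 to 1179 CPM in Ag and 515 to 764 CPM in Ag+Costim, most of it Ighm, while Pax5 was at 0 in Ag replicates 2 and 5. Myeloid markers summed to 48.5 to 115 CPM and 79.6 to 162 CPM, and CD4 T cell markers to 3.74 to 26.4 CPM and 3.16 to 8.20 CPM. The part of these cells and of the depth in the results that follow was not tested, and in bulk RNA more cells of a type cannot be told apart from more RNA per cell.

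At most events the alternative end has a stop codon of its own, so the coding sequence ends in different bases. The last 27 coding bases and the stop codon (in capitals) are shown, from the GENCODE M21 transcript sequences, for 4 genes whose values are given in the paragraphs that follow. Cd247 is shown because its ends make the zeta and eta chains of the T cell receptor complex, Tmed5 because it had the largest PSI difference, and Fanca and Prkd3 because their shares did not overlap between the groups.
Cd247, alternative last exon, chr1:165861040-165861069, plus strand: ctgcatatgcagaccctggcccctcgcTAA
Cd247, other last exon, chr1:165866817-165866846, plus strand: tggccacccagtagcagctcccagctcTAA
Tmed5, alternative last exon, chr5:108119315-108119344, minus strand: acatatgtcaccacacccagcaaaaccTAA
Tmed5, other last exon, chr5:108124541-108124570, minus strand: tttgaagataagaggaaaagtagaactTAA
Fanca, alternative last exon, chr8:123303896-123303925, minus strand: cccgtgtttctgtctgcgcagtgctgcTGA
Fanca, other last exon, chr8:123268442-123268471, minus strand: gacctctaccaggagcctcagctgttcTGA
Prkd3, alternative last exon, chr17:78971807-78971836, minus strand: agaaaattcctcaacagcaaactcaaaTGA
Prkd3, other last exon, chr17:78951857-78951886, minus strand: aacccagacgacatggaggaggatcctTAG
In Cd247 the upstream end gave the 164-residue zeta chain and the other end the 206-residue eta chain. The alternative ends of Tmed5, Fanca and Prkd3 gave 126, 481 and 297 residues, against 229, 1439 and 890 for the longest product of another end, which lies downstream in Fanca and Prkd3 and upstream in Tmed5.

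Across the events, the alternative end usually gave a shorter protein than the longest product of the gene's other ends. Of the 490 events with an annotated protein-coding transcript at both ends, 476 had a stop codon of their own and 14 shared it with another end. The longest protein ending at the event was shorter than that of the other ends in 384 events, longer in 96 and equal in 10, with a median difference of -117 residues. The events lay in genes with a median of 4 non-overlapping last exons. Taking the longest product over several other ends by itself favours a longer one there, and the size of this effect was not tested. The median length was 71.2% of the other product (quartiles 40.3% and 97.8%), and 162 events left less than 50% of it. Another 57 events had no protein-coding transcript at this end, 46 of them in genes without one at any end. The exons had a median length of 450 bases, against 1018 bases for the last exon of the compared transcript, and lay a median of 15518 bases upstream of the most distal end.

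**Figure D1:**
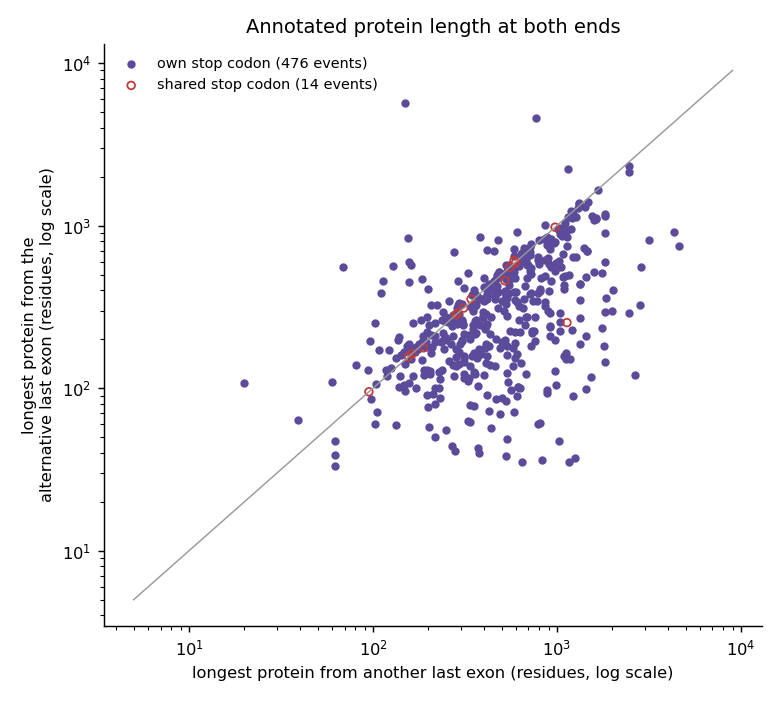
Length in residues of the longest annotated protein ending at each alternative last exon (vertical axis, log scale) against the longest protein from another last exon of the same gene (horizontal axis, log scale), for 490 events. Points under the diagonal, 384 of them, are shorter at the alternative end. Open circles mark the 14 events that share a stop codon.

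A poly(A) hexamer was present at most of these exons. The canonical hexamer AATAAA or its common variant ATTAAA, read on the transcript strand, lay within the last 50 bases of a transcript ending at the event in 69.9% of 549 events, and within the last 50 bases of some other transcript of the gene in 87.8%. All 67277 last exons of the annotation in transcripts with 2 or more exons were not matched to the events in type or level. Over these the share was 39.9%. Over protein-coding transcripts alone, counted per transcript, it was 51.3%, and 492 of the 549 events had such a transcript at this end. A gene's other ends usually comprise several transcripts and so have more chances of a match, and a match describes these letters only. In genes at 10 CPM or more, the hexamer was present at 88.7% of the 97 events with a mean PSI of 0.5 or more and at 69.0% of the 291 events below it, leaving out 1 without an annotated last exon. Median exon lengths of these sets were 908 and 377 bases, and median protein lengths were 103% and 60.05% of the other product, with no test made of these differences.

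PSI, the fraction of transcripts of a gene region that include the exon, was given by the authors as 1 value per group with the 5 libraries combined, so it carries no error. Most alternative last exons were either minor or nearly constitutive. In genes at 10 CPM or more in the group with the higher mean, 388 events of 349 genes, PSI was under 0.1 in both groups at 212 events, over 0.9 in both at 68 and between or mixed at 108. The median PSI was 0.0662 in Ag and 0.0572 in Ag+Costim, and the median absolute difference was 0.00833. PSI was higher in Ag+Costim by more than 0.1 at 4 events (1.03%, against 1.62% of events of all types in such genes) and lower by more than 0.1 at 10 (2.58%, against 1.65%). Alternative first exons, the mirror image at the 5′ end, passed this difference at 2.36% and 2.9% of 1104 events. Among the 163 events in genes under 10 CPM the scatter was wider, and over all 551 events 29 were higher and 26 lower by more than 0.1.

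**Figure D2:**
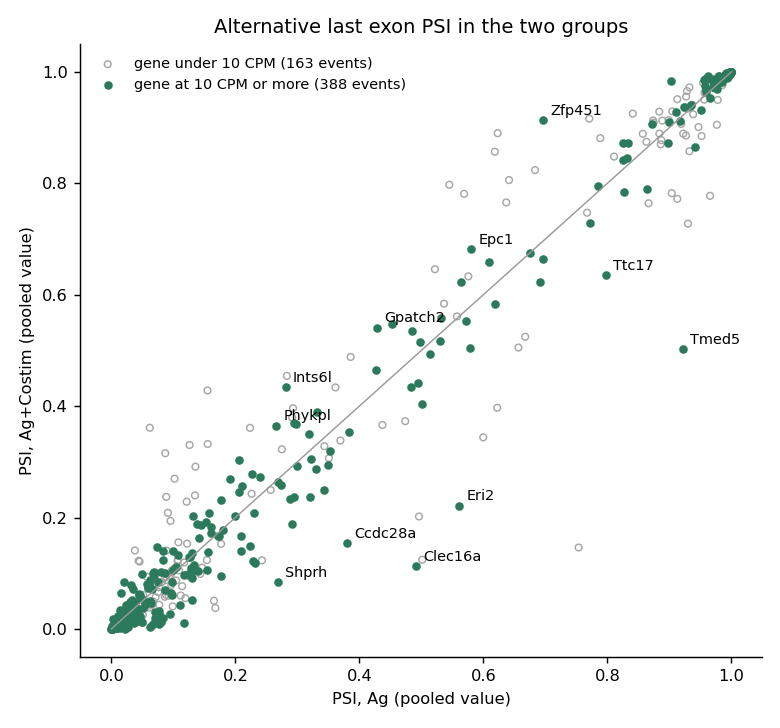
Pooled PSI of each alternative last exon event in Ag (horizontal axis) and Ag+Costim (vertical axis), both as fractions. Filled points are the 388 events in genes at 10 CPM or more, open points the 163 others, and the names mark events with the largest differences in each direction (6 lower, 5 higher). Most points lie near the diagonal at its 2 ends.

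To set a spread beside PSI, the share of a gene's transcript counts on transcripts whose last exon overlaps the event's was computed per library. Such a transcript may start its last exon at another splice site. Counts were not divided by transcript length, so a longer transcript weighs more in the share. PSI is a fraction of transcripts of a gene region. The 2 measures are thus unlike in kind, and the part of this in their gaps was not tested. Over the 387 events with such transcripts, mean PSI and mean share lay within 0.1 of each other at 297, while PSI exceeded the share by more than 0.3 at 23 and fell short of it by more than 0.3 at 6. Across these events the correlation was 0.91 for the levels and 0.37 for the differences between groups, both measures coming from the same libraries. The sign of the difference was the same for both at 276 events. The median share per library was 3.24% to 4.94% in Ag and 3.04% to 3.98% in Ag+Costim, and the groups overlapped. The number of events at a share of 0 split the Ag libraries: 65 and 68 events in replicates 2 and 5, 9 to 12 in replicates 1, 3 and 4, against 18 to 21 in Ag+Costim.

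The largest PSI differences toward less use in Ag+Costim lay in Tmed5, Clec16a, Eri2, Ccdc28a, Shprh and Ttc17. Tmed5 encodes a p24 family protein of vesicle transport from the endoplasmic reticulum. Its event at chr5:108117661-108119408 had a PSI of 0.921 with Ag and 0.502 with Ag+Costim, but the transcript ending there held only 1.31, 0, 5.18, 0.849 and 1.22% of the gene's counts in Ag replicates 1 to 5 and 0.884, 0.928, 0.554, 0.709 and 0.638% with Ag+Costim. The gene was at 81.4 ± 24.2 CPM with Ag against 128 ± 4.74 CPM with Ag+Costim. Shares of the 2 groups overlapped, and in both groups the PSI lay far above the share. Clec16a, an endosomal regulator of autophagy, had a PSI of 0.491 with Ag and 0.113 with Ag+Costim at chr16:10721273-10721418. Its shares were 19.1, 80.6, 55.2, 82.9 and 58.9% with Ag and 81.9, 0, 81.8, 0 and 5.90% with Ag+Costim, with 2 high and 3 low Ag+Costim libraries, so the groups overlapped over nearly their whole range. The Clec16a gene level was only 14.2 ± 3.58 CPM with Ag against 16.1 ± 1.59 CPM with Ag+Costim.

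Ccdc28a was the one of these genes whose libraries did not overlap. The event at chr10:18216784-18218392 had a PSI of 0.380 with Ag and 0.154 with Ag+Costim, and its share was 19.1, 36.1, 39.1, 27.9 and 23.5% in Ag against 14.1, 14.5, 12.8, 14.7 and 15.01% with Ag+Costim, or 29.1% ± 8.39 against 14.2% ± 0.850 (SD, n = 5). All Ag+Costim values lay below the lowest Ag value, yet the adjusted p was 0.892 (edgeR diffSpliceDGE with Benjamini-Hochberg adjustment over all last exons). Both ends code for a product of similar length, 192 and 184 residues.
Shprh, a ubiquitin ligase of DNA damage tolerance, had a PSI of 0.269 with Ag and 0.0837 with Ag+Costim at chr10:11207822-11209552. Its share was 30.7, 33.2, 51.1, 5.13 and 2.48% with Ag and 7.17, 4.06, 10.6, 6.98 and 3.19% with Ag+Costim, and 3 Ag libraries stood above all others, while replicate 4 lay within the Ag+Costim range and replicate 5 below it. These counts lay on transcripts whose last exon overlaps the event but starts at another splice site. The transcript with the event's own splice site was at 0 in every library. Its adjusted p was 0.437, or 0.0288 without Ag replicate 5 (edgeR), and its mean difference of -18.1 points was -11.5 points without Ag replicate 3. The share of Eri2, a predicted 3′ exonuclease, was 2.55% ± 2.07 with Ag and 0.663% ± 0.627 with Ag+Costim (SD, n = 5) at PSI values of 0.561 with Ag and 0.221 with Ag+Costim. Ttc17, a tetratricopeptide repeat protein, had 66.1% ± 8.36 and 57.7% ± 8.81 (SD, n = 5) at PSI values of 0.798 with Ag and 0.634 with Ag+Costim. In both genes the libraries of the groups overlapped.

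Among the largest differences toward more use in Ag+Costim were Zfp451, Ints6l, Gpatch2, Epc1 and Phykpl. Epc1, a subunit of the NuA4 histone acetyltransferase complex, had a PSI of 0.580 with Ag and 0.682 with Ag+Costim for an end that leaves 61 of 813 residues. Its shares were 6.58, 7.68, 4.63, 7.89 and 6.26% with Ag and 12.8, 7.76, 10.1, 9.32 and 9.89% with Ag+Costim, so that 4 of 5 Ag+Costim libraries lay above every Ag library. The Epc1 gene was at 23.5 ± 3.24 CPM with Ag against 14.5 ± 1.34 CPM with Ag+Costim.

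In Zfp451, a zinc finger SUMO ligase, the 2 measures differed in sign. Its PSI was 0.696 with Ag and 0.913 with Ag+Costim at chr1:33792136-33803613, whereas its share was 39.3% ± 10.1 with Ag and 30.1% ± 2.34 with Ag+Costim (SD, n = 5). The same held for Phykpl, an enzyme of lysine catabolism, with a PSI of 0.266 with Ag and 0.364 with Ag+Costim and shares of 41.0% ± 11.9 and 29.3% ± 16.9 (SD, n = 5). The Phykpl exon overlaps exons of Hnrnpab on the opposite strand, and the library kit does not mark strand, so reads of the 2 genes cannot be told apart there. Ints6l, a homologue of an Integrator subunit, had PSI values of 0.281 with Ag and 0.434 with Ag+Costim and shares of 5.64% ± 4.53 and 9.10% ± 7.08. Gpatch2 had PSI values of 0.429 with Ag and 0.541 with Ag+Costim and shares of 7.92% ± 5.10 and 8.24% ± 0.544, and this difference changed sign when Ag replicate 1 or 4 was left out. Over the 14 events past a PSI difference of 0.1, the share difference had the same sign at 11, by more than 10 points at 3 and without overlap of the groups at 1.

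**Figure D3:**
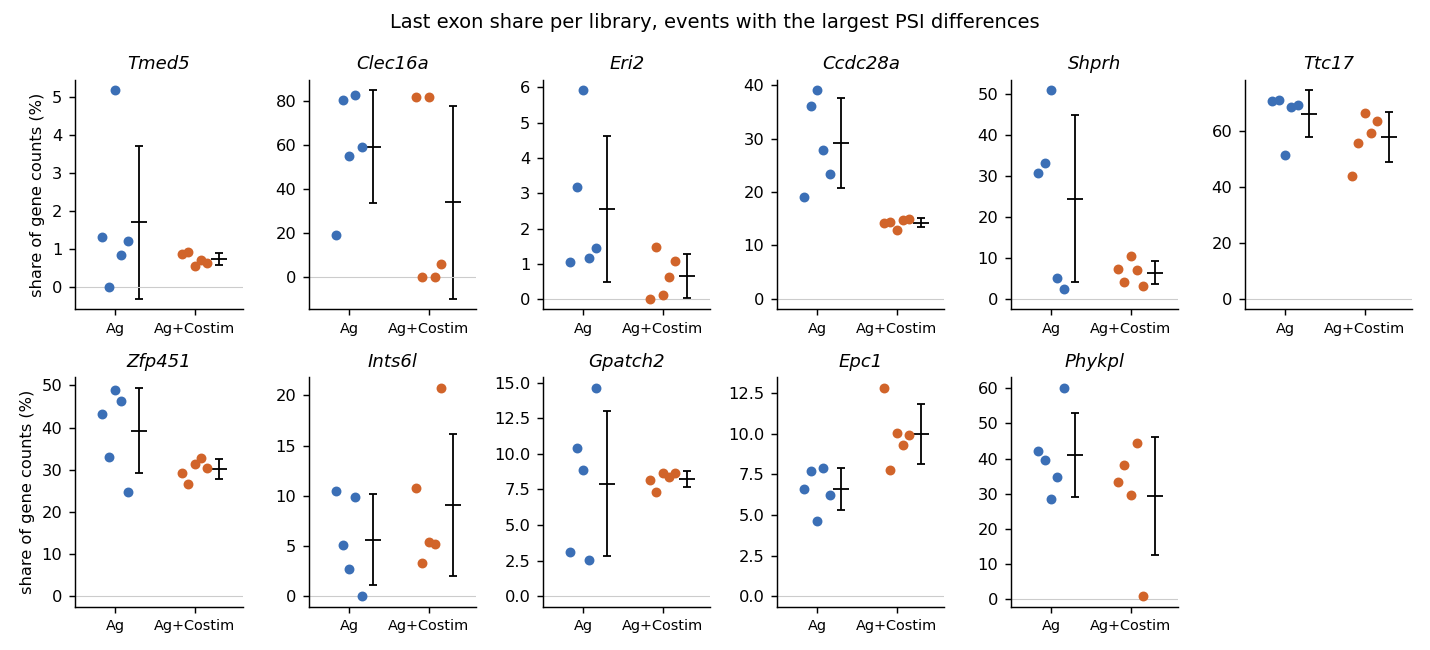
Share of each gene's transcript counts, in percent, on transcripts whose last exon overlaps the alternative last exon, in the 5 Ag (blue) and 5 Ag+Costim (orange) libraries, for 6 events with the largest lower (top) and 5 with the largest higher (bottom) PSI in Ag+Costim. Black bars give the mean and SD, and vertical scales differ between panels. Ccdc28a is the only panel in which the groups do not overlap.

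Whether last exon use differed between the groups was tested over all 25178 last exons of 8073 genes with more than 1, of which 476 were events of 433 genes. With edgeR's diffSpliceDGE and Benjamini-Hochberg adjustment, 0 events passed a threshold of 0.05 with a share difference over 10 points (0.00794% of all last exons did), and the lowest adjusted p of an event was 0.279. At an unadjusted p under 0.05 stood 28 events, 23 with a lower share in Ag+Costim (4.83%, against 6.71% of all last exons) and 5 with a higher one (1.05%, against 0.433%). The lean to lower shares depended on the test and on the libraries. With limma's diffSplice on all libraries, 15 events were lower (3.15%, against 4.29%) and 23 higher (4.83%, against 4.18%) at an unadjusted p under 0.05. In edgeR without Ag replicates 1, 3 and 4, a choice made after seeing the data, 8 events were lower (1.62%, against 1.71%) and 56 higher (11.4%, against 9.2%) at that p. In that fit 18 events were higher at an adjusted p under 0.05 (3.65%, against 1.51%) and 0 lower (against 0.117%). This fit kept only Ag replicates 2 and 5, the libraries with the most events at a share of 0 (65 and 68). All of the 18 except those in Auh and Nars2 had a share of 0 in both of them, so these calls rest on zeros in those libraries. Of the 18, 2, in Tacc2 and Acpp, differed by more than 10 points of share. Without Ag replicate 3 alone, 9 of 478 events were lower and 8 higher at an unadjusted p under 0.05 (edgeR). Of all last exons in that fit, 3.67% stood at such a p, 3.05% being lower. The groups did not overlap at 13 events with lower shares (2.77%, against 1.82% of all last exons) and at 5 with higher shares (1.07%, against 1.32%). The median share difference was -0.0267 points for the events and -0.0638 points for all last exons tested.

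Since no event passed the adjusted threshold, those with the lowest adjusted p are given as values. On the side of lower shares these were minor ends of Trappc9, Fanca, Cog6, Rnf13, Prkd3 and Tmem135. Fanca is the Fanconi anemia core protein, and its event at chr8:123302075-123303994 leaves 481 of 1439 residues. Its share was 2.28, 1.65, 10.3, 1.83 and 1.87% with Ag and 0.419, 0.536, 1.02, 0.974 and 0.502% with Ag+Costim (adjusted p = 0.338, edgeR), every Ag library lying above every Ag+Costim library. The mean difference of -2.90 points was -1.22 points without Ag replicate 3, and the adjusted p was 0.0488 (edgeR) without Ag replicate 5. The PSI was 0.0801 with Ag and 0.0118 with Ag+Costim, and the gene was at 31.1 ± 18.9 CPM with Ag against 60.5 ± 4.09 CPM with Ag+Costim. Prkd3, a serine/threonine kinase of the protein kinase D family, showed the same pattern at chr17:78971555-78971840. Its share was 2.59, 2.95, 3.84, 0.735 and 1.83% with Ag and 0.528, 0.357, 0.381, 0.360 and 0.285% with Ag+Costim (adjusted p = 0.370, edgeR), and the short end of 297 residues had a PSI of 0.0150 with Ag and 0.00829 with Ag+Costim. Trappc9, a subunit of a vesicle tethering complex, had the lowest adjusted p of all events (0.279, edgeR) with shares of 15.3, 0, 0.289, 2.68 and 6.55% with Ag and 1.13, 0.301, 0.0650, 0.0508 and 0.0528% with Ag+Costim. Its Ag libraries ran from 0 to the highest value of all, and the groups overlapped. Its mean difference of -4.65 points was -2.06 points without Ag replicate 1.

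The other 3 events of that side were rare ends. Cog6, a Golgi tethering subunit, had shares of 0.677, 0.591, 1.37, 0.439 and 0% with Ag and 0, 0, 0.0387, 0 and 0.0712% with Ag+Costim, with 4 of 5 Ag libraries above all Ag+Costim libraries. Rnf13, an endosomal ubiquitin ligase, had a mean share of 3.25% ± 3.36 with Ag and 0.422% ± 0.498 with Ag+Costim, and Tmem135, a multipass membrane protein, of 3.01% ± 5.19 and 0.214% ± 0.236 (SD, n = 5). In both the SD of Ag exceeded its mean. Without Ag replicate 3 the Tmem135 difference of -2.80 points was -0.512 points and the Rnf13 difference of -2.83 points was -1.57 points, and Tmem135 was at 0 in Ag replicates 2 and 5. Without Ag replicates 1, 3 and 4 its direction turned, with a mean share of 0% in Ag and 0.214% with Ag+Costim. On the side of higher shares, Ewsr1, an RNA-binding protein of the FET family at 530.2 ± 207 CPM with Ag against 829 ± 52.6 CPM with Ag+Costim, had 0.431% ± 0.282 and 0.955% ± 0.747, and Efr3a, a plasma membrane scaffold for lipid kinases, 0.412% ± 0.575 and 1.05% ± 1.30 (SD, n = 5). The adjusted p of Efr3a was 0.608, or 0.0443 without Ag replicate 5 (edgeR), but its mean difference of 0.638 points was 0.0775 points without Ag+Costim replicate 2. Lig3, a DNA ligase, had 0.392% ± 0.694 and 1.87% ± 1.78, and Son, a scaffold of nuclear speckles, 4.98% ± 3.15 and 7.70% ± 2.08 (SD, n = 5). The Ewsr1 difference of 0.524 points was 0.198 points without Ag+Costim replicate 5, and the Lig3 difference of 1.48 points was 0.812 points without Ag+Costim replicate 1. Cep41, a centrosomal protein, was the one event of this side without overlap. Its share was 0.208, 0.336, 1.52, 0.765 and 0.618% with Ag and 3.32, 4.68, 2.05, 2.21 and 2.34% with Ag+Costim (adjusted p = 0.619, edgeR), and its PSI was 0.135 with Ag and 0.240 with Ag+Costim, in a gene at 9.74 ± 2.32 CPM with Ag against 9.41 ± 0.570 CPM with Ag+Costim. Paqr3, at only 4.26 ± 3.66 CPM with Ag against 1.70 ± 0.414 CPM with Ag+Costim, had shares of 45.8% ± 36.2 and 76.5% ± 10.9 (SD, n = 5), and its exon shares sequence with Bmp2k on the opposite strand.

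**Figure D4:**
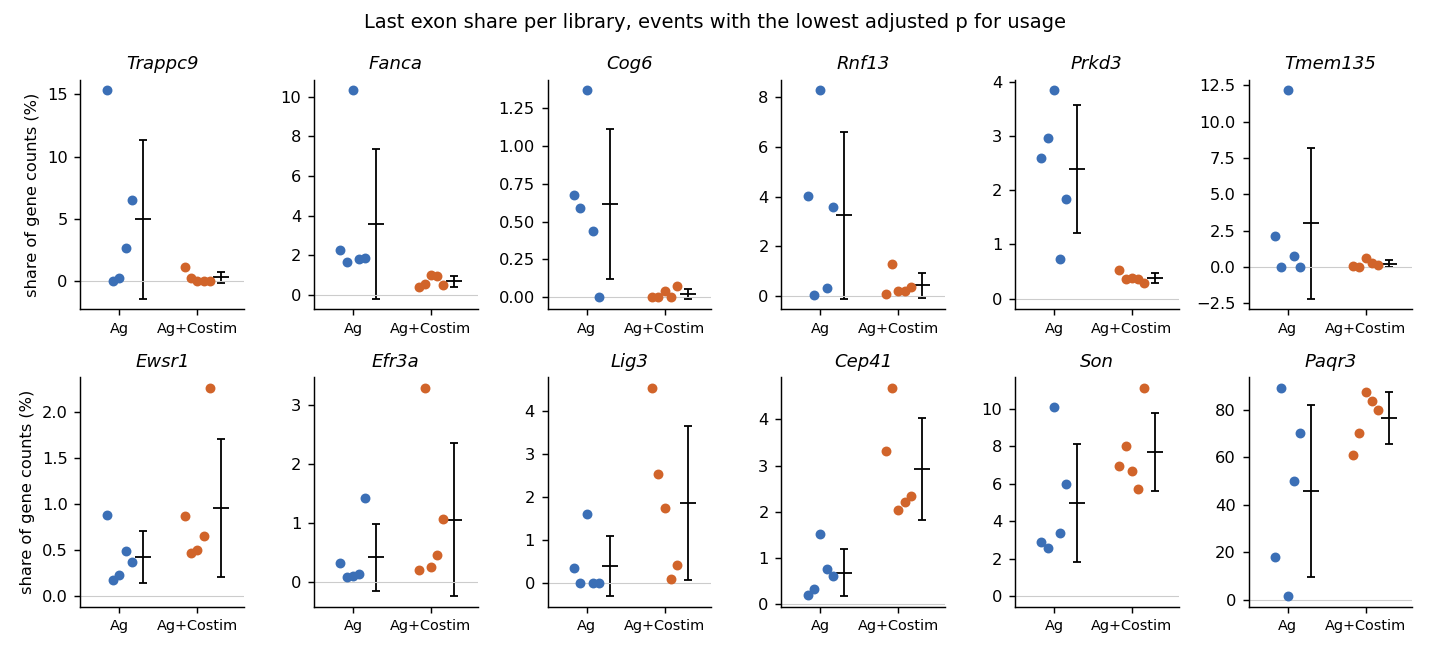
Share of each gene's transcript counts, in percent, on transcripts whose last exon overlaps the alternative last exon, in the 5 Ag (blue) and 5 Ag+Costim (orange) libraries, for the 6 events with the lowest adjusted p on the lower (top) and higher (bottom) side, none past 0.05. Black bars give the mean and SD, and vertical scales differ between panels. Only Fanca, Prkd3 and Cep41 do not overlap between the groups.

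Genes of T cell and immune signalling were described by symbol. Of the 12 events in genes whose symbols match a list for immune receptors, cytokines, signalling proteins and transcription factors, which also caught the chromatin remodelling subunits Bcl7b and Bcl7c and the ribosome assembly chaperone Pdcd2, 11 lay in genes at 10 CPM or more, none of these differed in PSI by more than 0.05, and 0 of 11 tested had an unadjusted usage p under 0.05 (28 of all 476 events and 7.14% of all last exons did). The zeta end of Cd247, the signalling chain of the T cell receptor complex, held 97.9, 98.1, 98.7, 98.6 and 98.2% of the gene's counts in Ag and 98.9, 98.8, 98.3, 99.1 and 99.1% with Ag+Costim, at a PSI of 0.984 with Ag and 0.986 with Ag+Costim, which leaves the eta end with a small remainder in every library. The most used end of Irf1, an interferon-induced transcription factor, had a PSI of 0.999 with Ag and 0.999 with Ag+Costim and shares of 99.1% ± 0.191 and 99.4% ± 0.156 (SD, n = 5).
Short ends of signalling genes were minor. In Il2ra, which encodes the alpha chain of the interleukin 2 receptor, the upstream end leaves 44 of 268 residues and held 3.21, 1.89, 3.73, 5.70 and 1.06% of counts in Ag and 3.13, 1.57, 1.77, 1.46 and 2.82% with Ag+Costim, while the gene was at 19.5 ± 17.1 CPM with Ag against 50.8 ± 22.4 CPM with Ag+Costim. In Fas, the death receptor, an end of 63 of 327 residues held 1.25% ± 0.533 and 1.5995% ± 0.427. In Bcl2l11, which encodes the pro-apoptotic protein BIM, an end of 91 of 196 residues held 8.68% ± 6.49 and 7.96% ± 0.941 (SD, n = 5), at a PSI of 0.153 with Ag and 0.192 with Ag+Costim. The end of Il1rap, the interleukin 1 receptor accessory protein, that gives the shorter annotated product held 79.1% ± 10.6 and 77.0% ± 4.19 of counts. The libraries of the groups overlapped in each of these genes, and the end of Il1rap lies over an exon of the predicted gene Gm20319 on the opposite strand.

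Among the other gene families, grouped by symbol, membrane traffic and small GTPase genes held 32 events, 4 of 26 tested at an unadjusted usage p under 0.05 (Trappc9, Cog6, Vps25 and Arhgef2, all lower), against 7.14% of all last exons. DNA repair, replication and cell cycle genes held 17 events with 2 (Fanca lower and Lig3 higher), kinase and phosphatase genes 20 with 2 (Prkd3 and Map4, both lower, the latter a microtubule protein caught by its symbol), ubiquitin genes 8 with 1 (Rnf13), and RNA processing and translation (21 events), zinc finger (17) and chromatin genes (6) none. None of these reached an adjusted p under 0.05. In Hnrnpa2b1, an abundant splicing regulator at 1169 ± 517 CPM with Ag against 2079 ± 136 CPM with Ag+Costim, the alternative end held 71.7% ± 6.89 and 76.2% ± 2.53 (SD, n = 5). In Srsf10, another splicing factor, it held 60.2% ± 4.06 and 61.1% ± 1.895. Genes with textbook alternative ends in lymphocytes or in 3′ processing itself (Nfatc1, Cstf3, Pcf11 and Rbbp6) were not among the 501 genes.

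The expression of the genes that carry the events was tested as a separate question. With edgeR's quasi-likelihood test, 0 of 501 genes passed a Benjamini-Hochberg adjusted p of 0.05, as did 0% of all 24262 genes tested. At an unadjusted p under 0.05 stood 66 genes with a higher level in Ag+Costim (13.2%, against 7.89% of all genes) and 37 with a lower one (7.39%, against 10.7%). DESeq2's Wald test called 21 higher (4.21%, against 1.79%) and 32 lower (6.41%, against 12.5%). Without Ag replicates 1, 3 and 4, edgeR called 45 higher (8.98%, against 7.51%) and 25 lower (4.99%, against 3.32%). The genes were well expressed, with a median level of 26.2 CPM in the higher group against 1.97 CPM over all genes tested.

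The machinery that chooses a last exon was measured in the same gene counts. The list held 20 cleavage and polyadenylation factors, 3 proteins of U1 snRNP, which restrains premature cleavage, CDK12, CDK13 and cyclin K, kinases of elongating polymerase whose loss favours intronic polyadenylation, and 11 RNA-binding proteins known to affect terminal exons. All 37 were tested and none passed the adjusted threshold with edgeR, while 21 stood at an unadjusted p under 0.05 with a higher level in Ag+Costim (against 7.89% of all genes) and 0 with a lower level (against 10.7%). By DESeq2, 9 were called higher (against 1.79%) and 0 lower (against 12.5%). Their log2 fold changes had a median of 0.48 on the TMM scale, or 0.35 and 0.22 when libraries were scaled by DESeq2's size factors or by total counts, and 35, 32 and 31 of the genes lay above 0 on these scales. Over all genes at 10 CPM or more the median moved likewise from 0.24 to 0.12 and 0 between the 3 scales. All genes tested with edgeR had a median level of 1.97 CPM in the higher group. The percentages over all genes are thus not matched to the list in level.

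The 4 largest positive log2 fold changes were 0.94 (SE 0.16) for Sympk, the scaffold of the cleavage complex, 0.90 (SE 0.18) for Hnrnpl, 0.86 (SE 0.26) for Khsrp and 0.83 (SE 0.26) for Cstf2, the subunit that binds downstream of the cleavage site and whose level affects immunoglobulin end choice. Sympk stood at 36.0 ± 8.12 CPM with Ag against 68.9 ± 6.20 CPM with Ag+Costim and did not overlap between groups (adjusted p = 0.134, edgeR). Cstf2 stood at 91.9 ± 36.4 CPM with Ag against 163 ± 17.2 CPM with Ag+Costim, also without overlap (adjusted p = 0.222, edgeR). Hnrnpl, a splicing repressor, stood at 201 ± 46.7 CPM with Ag against 375 ± 35.9 CPM with Ag+Costim, without overlap (adjusted p = 0.140, edgeR). Khsrp, which binds AU-rich elements, stood at 35.4 ± 13.7 CPM with Ag against 64.1 ± 11.3 CPM with Ag+Costim, with overlapping groups (adjusted p = 0.220, edgeR). In Ag replicates 1 to 5, Cstf2 was at 52.3, 122, 92.3, 59.2 and 134 CPM and Sympk at 30.2, 33.5, 47.8, 40.8 and 28.1 CPM. Replicates 1 and 4 both lay below the other Ag libraries for Cstf2, Hnrnpl and Khsrp, but not for Sympk. The part of this split in the folds of the list was not tested. Cdk13 and Cdk12 were the only genes of the list with a negative value on the TMM scale, -0.45 (SE 0.21) and -0.21 (SE 0.28), at 20.1 ± 5.15 CPM with Ag against 14.7 ± 2.90 CPM with Ag+Costim and 22.0 ± 9.32 CPM with Ag against 19.1 ± 2.47 CPM with Ag+Costim, and their libraries overlapped. Under each of the other 2 scalings they stayed below 0, while Cstf2t, Pcf11 and Rbbp6 turned negative under both and Papolg under total counts. Cdk12 changed sign when Ag replicate 4 was left out. Tardbp, which encodes TDP-43, was at 111 ± 35.7 CPM with Ag against 158 ± 15.6 CPM with Ag+Costim, with overlapping groups.

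**Figure D5:**
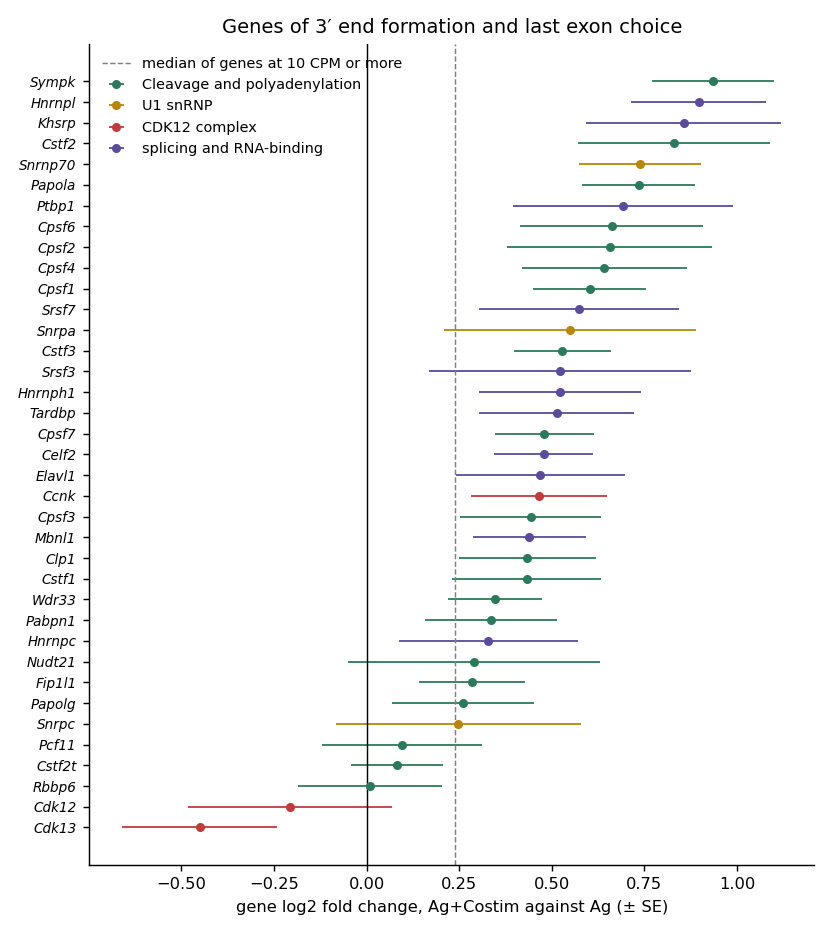
Gene log2 fold change, Ag+Costim against Ag (horizontal axis, edgeR estimate with its SE as bars), of 37 genes that act in 3′ end formation or last exon choice, coloured by list. The solid line marks 0 and the dashed line the median of all genes at 10 CPM or more, 0.24. Of the 37 points, 35 lie above 0, and none passed the adjusted threshold.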

How the data were processed

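The authors prepared SMART-Seq v4 and Nextera XT libraries of sorted CD8+ T cells, aligned reads to mm10 with HISAT2 2.1.0, sorted them with SAMtools 1.9 and quantified genes and transcripts with StringTie 2.1.0 (versions from the submitters' processing notes). What the authors deposited for genes and transcripts were coverage-derived estimated counts in whole numbers, not normalized. The authors also ran Whippet, and the deposited PSI values are fractions, 1 per event and group with libraries combined, so their depth is unknown. Its version is not given in the sources used here. The columns with the authors' own PSI difference and its probability hold their comparison and were not used, nor were those on event complexity.

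Entries without a GENCODE M21 identifier (26345, 0.046% to 0.308% of a library's counts) were left out. Events were matched to genes by symbol (534) or by splice site (17). Transcripts whose last exons overlap were summed, and each sum was divided by the gene's total to give a share. CPM used TMM factors. The protein end was read from the longest protein-coding transcript with the event's splice site and the longest with another last exon. In R 4.3.3, edgeR 4.0.16 compared genes by its quasi-likelihood test and last exon use by diffSpliceDGE, both after filterByExpr, with p-values adjusted by Benjamini-Hochberg over all features tested. Alternatives used DESeq2 1.42.0, limma 3.58.1, other scalings and filters, and each library left out. Both fits were tested on simulated counts.

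Events named are the 6 per direction with the largest PSI difference in genes at 10 CPM or more (1 per gene), the 6 per direction at any level with the lowest adjusted usage p, as none was called, members of the immune gene list with a PSI difference over 0.1 (there were 0), and 4 fixed genes with known ends (none had an event). From the regulator list, up to 4 per direction with the largest fold were named. Other genes named (Hnrnpa2b1, Srsf10, Tardbp, members of the immune list and genes chosen for their sequences) were chosen after their values were seen. Some results that these rules would name are not reported here. Members and lists were chosen with earlier results of these data known.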

Additional observations from a re-analysis of the deposited data

Results flagged for a closer look

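In 11 of 60 groups of 5 values checked, 1 library lay far from the other 4 (Dixon's ratio of gap to range at its 95% critical value). For normally distributed values not chosen by their size, chance alone gives about 1 in 20. The events and genes checked were chosen by their values and many shares lay near 0, so 11 of 60 cannot be read against that rate. Ag replicate 3, the library with the fewest counts, was the distant value in 5 of them. Its last exon shares were 5.18% for Tmed5 (next highest 1.31%), 10.3% for Fanca (next 2.28%), 12.2% for Tmem135 (next 2.15%) and 1.602% for Lig3 (next 0.356%), all above the rest of Ag, and 51.2% for Ttc17, below the next lowest at 68.3%. In Ag replicate 5 the Efr3a share was 1.43%. In Ag+Costim, the distant values were 1.13% for Trappc9 in replicate 1, 1.29% for Rnf13 and 3.29% for Efr3a in replicate 2, 2.26% for Ewsr1 in replicate 5, and a gene level of 436 CPM for Hnrnpl in replicate 4. Without Ag replicate 3, Fanca's share difference was -1.22 points and that of Tmed5 -0.10 points.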

How the results depend on the processing

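The count of genes with an event past the adjusted threshold for expression was 0 under TMM, DESeq2's size factors in edgeR, total counts, no filter and each library left out. DESeq2's Wald test called 53 (6214 over all genes), and leaving out Ag replicates 1, 3 and 4 together, tried after seeing the data, gave 70 (2752 over all genes). For last exon usage, genes with a gene-level (Simes) adjusted p under 0.05 and an event whose share differed by more than 10 points were counted. The count was 0 by default, with DESeq2's size factors, with at least 50 counts in 5 libraries and with a share difference over 0.05. It was 1 with limma (Tacc2), 1 without a filter (Lca5), 1 with last exons grouped by splice site (Wdr76), 0 to 2 with 1 library left out (2, Pdss2 and Shprh, without Ag replicate 5, 1, Lca5, without Ag replicate 4 or Ag+Costim replicate 1 or 4), and 3 without Ag replicates 1, 3 and 4. Over all features tested, the count was 3 by default, 12 with limma, 5 without a filter and 6 by splice site. It was 75 without Ag replicate 5, 7 without Ag replicate 4, and 6 and 10 without Ag+Costim replicates 1 and 4. Without Ag replicates 1, 3 and 4 it was 156. The events whose PSI differed by more than 0.1, 14 in genes at 10 CPM or more, were 57 past 0.05, 5 past 0.2, 49 in genes at 1 CPM or more (28 higher, 21 lower) and 55 in all genes (29 higher, 26 lower), against 4 higher and 10 lower at 10 CPM. With last exons grouped by splice site, the Shprh share difference was 0. With 1 library left out, the Gpatch2 share difference ran from -1.02 to 2.00 points and the Cdk12 log2 fold change from -0.35 to 0.00397. The cause of these changes was not tested. With the replicate number as a block, 0 genes passed for expression and 0 for usage. At an unadjusted usage p under 0.05 (edgeR) stood 13 of 476 events with the block and 28 without it. The share of all last exons at that p was 2.65% with the block and 7.14% without it. Correlations of the deviations of same-numbered libraries ran from -0.335 to 0.184, and those of other pairs from -0.393 to 0.33. These values show no pairing by number, but 5 same-numbered pairs cannot exclude one. Of the values of single named events and genes, 353 kept their direction and side of the threshold, 3 passed it (Shprh, Fanca and Efr3a without Ag replicate 5) and 4 lost or changed their direction. PSI is 1 pooled value per group and could not be recomputed without a library.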

Other observations

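Several events in well expressed genes, chosen after their values were seen, had PSI and transcript shares far apart in level. The 2 measures are unlike in kind, and the share counts every transcript whose last exon overlaps the event's. In Rps24, a ribosomal protein gene, the event's PSI was 0.000122 with Ag and 8.8e-05 with Ag+Costim, while transcripts ending in the overlapping last exon held 99.96% ± 0.0134 of counts in Ag and 99.9% ± 0.0256 with Ag+Costim. In Ncor1, a nuclear corepressor, PSI was 0.563 with Ag and 0.623 with Ag+Costim for an end that leaves 291 of 2454 residues, and its share was 7.56% ± 0.598 and 5.43% ± 0.896 (SD, n = 5), without overlap and with the opposite sign. In Samhd1, the dNTP hydrolase, PSI was 0.344 with Ag and 0.249 with Ag+Costim and the share 89.98% ± 3.86 and 93.9% ± 2.04. Without overlap and with both measures higher were Srgap2, a GTPase-activating protein (PSI 0.871 with Ag and 0.906 with Ag+Costim, share 55.7% ± 6.79 and 71.8% ± 4.14), and Etnk1, an ethanolamine kinase (PSI 0.957 with Ag and 0.974 with Ag+Costim, share 76.1% ± 8.75 and 92.1% ± 3.67), neither of which had an adjusted p near 0.05 (edgeR, both 0.99999). The Etnk1 end lies over an exon of 1700126G02Rik on the opposite strand.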
